A study of Mus musculus with 12 samples.

Results

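Brain endothelium from 4 mouse embryos without the receptor Gpr124 (Gpr124-/-, embryos KE4, ME1, ME4 and ME5) was compared with that of 4 wild-type (WT) embryos (JE1, JE6, KE8 and LE6). These are 8 of the 12 RNA-seq libraries of the series, chosen by the genotype in their labels. The other 4 libraries come from Gpr124deltaC/deltaC embryos, whose receptor lacks its intracellular domain, and are used only where stated. All genes with enough counts were tested, and the sections that follow ask which functions rise and fall in the knockout outside the WNT pathway and the junction genes of the barrier.

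Every library was made from the forebrain of 1 E15.5 embryo, from live CD31+ cells sorted free of pericytes (CD140b-) and leukocytes (CD45-). The Gpr124-/- embryos carry an allele with a lacZ insertion on both chromosomes and came from intercrosses of heterozygous parents, and the WT embryos carry neither mutant allele. The allele is global, so every cell of the embryo lacked the receptor, not only the endothelium, and the mutation is known to cause bleeding in the embryonic brain. RNA was amplified by SMART-Seq from few cells, and the file values are counts and TPM (a level scaled for gene length and library size) for each gene.

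As background, Gpr124 (gene *Adgra2*) is an adhesion G protein-coupled receptor that works with Reck to pass Wnt7a and Wnt7b signals to β-catenin in the endothelium of the growing central nervous system. That signal lets vessels enter the neural tissue and turns on the blood-brain barrier. Barrier endothelium seals the space between cells, so nutrients, hormones and ions cross it through dedicated carriers, whereas capillaries of muscle, heart and fat are leakier and specialise in the uptake of fatty acids.

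*Adgra2* checked the genotype labels. It measured 42.9, 51.1, 28.4 and 31.9 TPM in WT and 6.29, 4.03, 4.57 and 4.54 TPM in Gpr124-/- (log2 fold change −3.05 ± 0.30, edgeR adjusted p = 1.35e-05). The groups did not overlap, and some signal remained in every Gpr124-/- library. The gene lies on chromosome 8 at 27085583 to 27123436 on the plus strand of GRCm38 (mm10), in the GENCODE annotation. Here and throughout, the 4 values of a group are given in the order JE1, JE6, KE8, LE6 and KE4, ME1, ME4, ME5, the ± beside a log2 fold change is its standard error, and a positive log2 fold change means higher in Gpr124-/-.

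The 8 libraries held 14987249 to 22551163 counts on genes. Of 16637 genes tested, 944 (5.67%) were called higher and 700 (4.21%) were called lower in Gpr124-/-, at an edgeR adjusted p under 0.05 and a log2 fold change above 1 in size. The median log2 fold change of all genes tested was −0.01. One gene, *Gm23935*, stood at 124600 TPM in JE6 and 14590 to 30360 TPM in the other 7 embryos, so the TPM of all other genes are somewhat lower in JE6. These 2 shares are the background for every gene list that follows. In bulk RNA, fewer cells of a type and less RNA per cell cannot be told apart, so a lower value may be either.

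Of the genes called lower, 288 changed by more than 2 on the log2 scale and 44 by more than 4, against 313 and 28 of those called higher. The CPM (counts scaled to library size) of the 4 and the 4 did not overlap for 798 of the 944 genes called higher and for 635 of the 700 called lower, where 22.9% of all genes tested had no overlap.

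The 4 Gpr124-/- libraries were not alike. Embryo KE4 lay nearest to WT for 627 of the 944 genes called higher and for 339 of the 700 called lower. It was still beyond the WT range in CPM for 814 of the 944 and for 657 of the 700. Those shares are the background for such counts of KE4 below. The mean log2 CPM of the genes called higher was 1.81 to 1.93 in the WT embryos, 3.14 in KE4 and 3.63 to 3.89 in ME1, ME4 and ME5. For the genes called lower it was 3.71 to 3.91 in WT, 2.165 in KE4 and 1.77 to 1.84 in the other 3. Embryo names open with a letter (J, K, L or M) that the labels do not explain, and only K has both genotypes (WT KE8 and Gpr124-/- KE4). All 3 of the other Gpr124-/- embryos carry M, which no WT embryo does, so for them letter and genotype cannot be told apart. With the letter as a term, 495 genes (2.98%) were higher and 351 (2.11%) lower, and 302 and 299 of the main calls were among them. With KE4 as the lone Gpr124-/- library, 237 (1.42%) were higher and 301 (1.81%) lower, and the lone library is then assumed to vary like the others. The counts with the letter as a term are given below beside each gene list whose calls are counted. Of the single genes described, those that lose their call with it are marked by their value there.

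Marker genes of other cell types were summed in each library, because the sort sets what else the tube could hold. The 30 pan-endothelial markers came to 11290 to 13070 TPM in WT and 13150 to 15740 TPM in Gpr124-/-. Of them 2 were called higher, and 3 with the letter as a term. The 2 were *Emcn*, which codes for endomucin (158 to 212 TPM in WT and 403 to 462 TPM in Gpr124-/-), and *Mcam* (282 to 354 TPM in WT and 658 to 995 TPM in Gpr124-/-). Platelet and megakaryocyte markers came to 433 to 809 TPM in WT, 768 TPM in KE4 and 2042 to 2808 TPM in ME1, ME4 and ME5, with 12 of 15 tested markers called higher in the main fit, 1 with the letter as a term and 0 with KE4 alone. Erythroid markers came to 7105 to 11850 TPM in WT and 17860 to 54490 TPM in Gpr124-/-, where KE4 had 25260 TPM. Of 14 tested, 8 were called higher and 0 lower, and 1 and 0 with the letter as a term. Macrophage and microglial markers came to 472 to 695 TPM in WT, 594 TPM in KE4 and 801 to 1142 TPM in the other 3. This list shares *Pf4* with the platelet list, so the 2 sums are not fully separate. Of its 20 markers 9 were tested, with 4 called higher and 1 lower, and 0 and 1 with the letter as a term. Pericyte and smooth muscle markers came to 227 to 413 TPM in WT and 131 to 165 TPM in Gpr124-/-. Most of that sum in every library was *Foxf2*, a single member whose values are given below. Of 17 tested, 2 were called lower and 1 higher, and 0 and 1 with the letter as a term. Fibroblast markers were at 32.5 to 122 TPM in WT and 35.9 to 36.9 TPM in Gpr124-/-, and neuronal markers at 89.5 to 206 TPM and 180 to 256 TPM. Neural progenitor markers came to 697 to 804 TPM in WT and 1043 to 1202 TPM in Gpr124-/-, without overlap and with 1079 TPM in KE4. Of 17 tested 0 were called higher and 1 lower, and 1 and 1 with the letter as a term. *Notch1*, also on the Notch list below, is among them (83.1 to 98.2 TPM in WT and 95.8 to 131 TPM in Gpr124-/-). The sum is therefore not a measure of neural cells alone. No marker on these lists was at 0 in all 8 libraries. The part of blood cells in a result was not tested, and their values stand beside the results they move with.

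**Figure D1:**
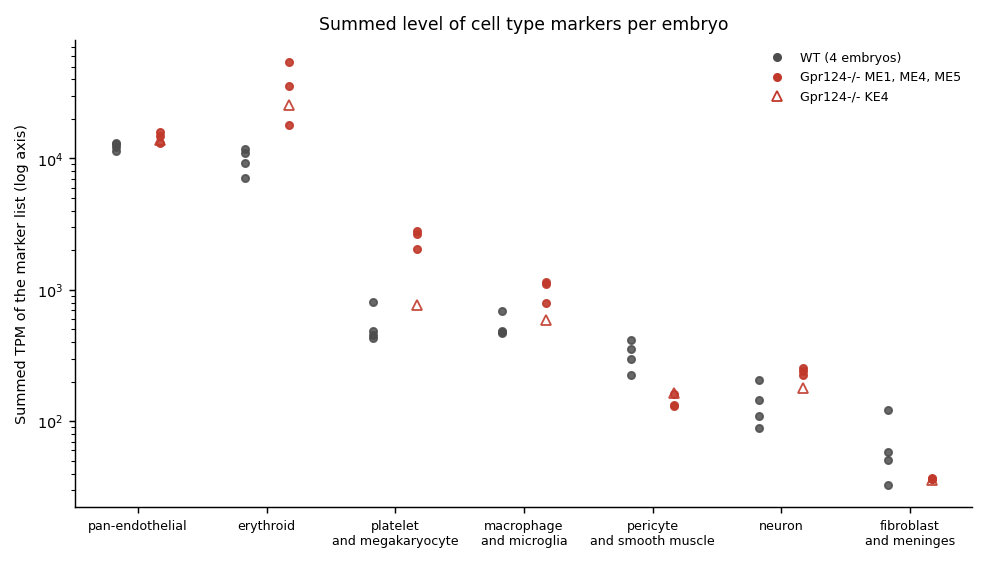
Summed TPM (log axis) of 7 marker lists in each of the 8 libraries, with WT in grey, ME1, ME4 and ME5 in filled red and KE4 as an open triangle. Platelet markers were at 2042 to 2808 TPM in ME1, ME4 and ME5, while KE4 (768 TPM) lay within the WT range.

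Of the 15 largest falls outside the WNT and junction lists (mean CPM of at least 8, no overlap between groups), 13 are given here, which are *Ptges*, *Slc22a8*, *Slco1c1*, *Slc38a5*, *Ccdc141*, *Far2*, *Slc44a5*, *Serpinb6b*, *Slc7a8*, *Apod*, *Fndc1*, *Tfrc* and *Dpp4*. The 15 largest rises were *Cd300lg*, *Ccn4*, *Irf8*, *Esm1*, *Kcne3*, *Ttc9*, *Ramp3*, *Col13a1*, *Ednrb*, *Aqp1*, *Dock8*, *Olfml2b*, *Adam12*, *Slc16a3* and *Gpihbp1*. All 28 kept their call whichever of the 8 libraries was left out. They are described below with the function they belong to.

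**Figure D2:**
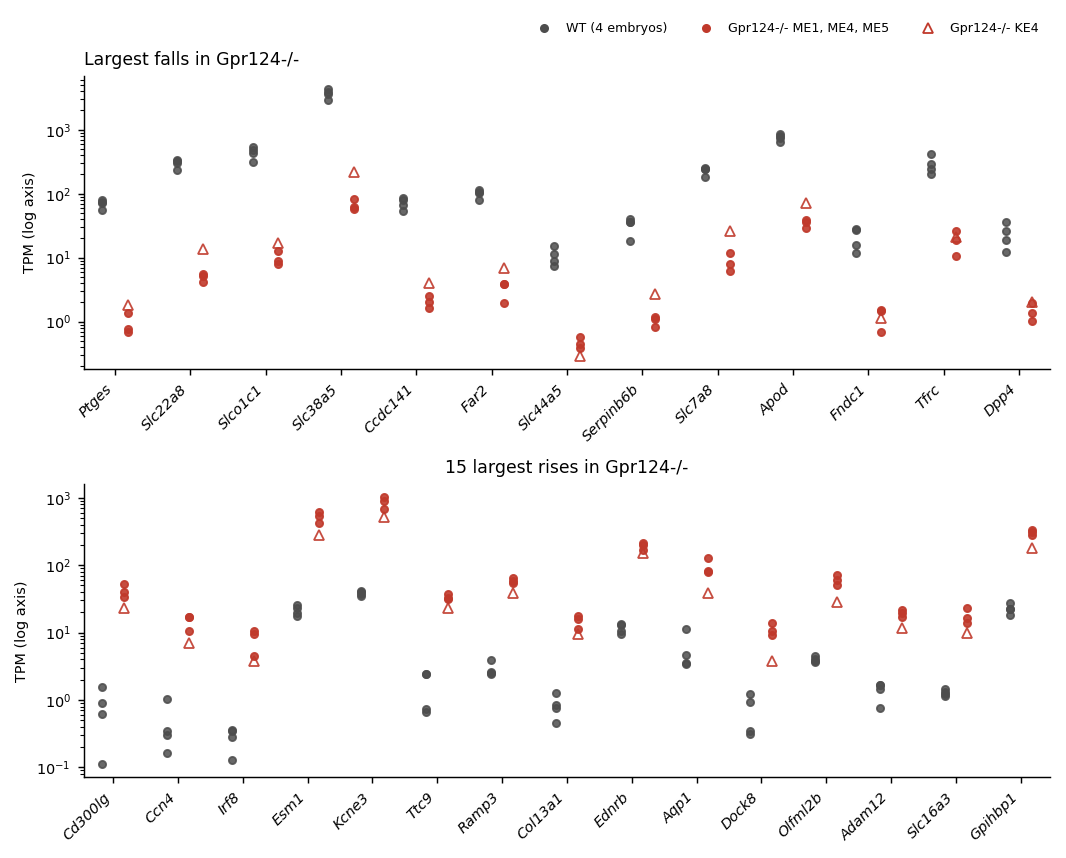
TPM (log axis) of 13 genes among the largest falls (top) and of the 15 largest rises (bottom) in each of the 8 libraries, with WT in grey, ME1, ME4 and ME5 in filled red and KE4 as an open triangle. No gene shown has overlapping groups, and KE4 is the Gpr124-/- library nearest to WT for most of them.

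Carriers of small molecules were called lower more often than higher. Of 229 tested SLC genes (solute carriers, SLCO included), 38 were called lower and 19 higher, that is 16.6% and 8.30%, and the median log2 fold change was −0.15. The family summed to 23770 to 27390 TPM in the WT embryos and 11080 to 13400 TPM in the Gpr124-/- embryos. With the letter as a term 36 were lower and 11 higher, and with KE4 alone 28 and 2.

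Promoters of 3 carriers, 2 among the largest falls and 1 among the largest rises, are shown here to place what follows (RefSeq, GRCm38.p6, from 250 bases before the start to 30 after it, 5′ to 3′ on the gene's strand). Capitals mark ACGTG, the core letters of the hypoxia response element, searched on both strands. Only windows with a match were kept for display, so the match in each of the 3 was fixed by that choice. The first is chrX:8271131-8271410 (+), the second chr6:141524104-141524383 (+) and the third chr11:120948817-120949096 (+).
Slc38a5: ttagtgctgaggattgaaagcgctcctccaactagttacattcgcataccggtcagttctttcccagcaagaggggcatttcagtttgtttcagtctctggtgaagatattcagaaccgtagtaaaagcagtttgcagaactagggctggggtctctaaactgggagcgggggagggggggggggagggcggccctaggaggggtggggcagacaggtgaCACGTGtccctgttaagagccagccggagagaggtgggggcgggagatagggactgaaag
Slco1c1: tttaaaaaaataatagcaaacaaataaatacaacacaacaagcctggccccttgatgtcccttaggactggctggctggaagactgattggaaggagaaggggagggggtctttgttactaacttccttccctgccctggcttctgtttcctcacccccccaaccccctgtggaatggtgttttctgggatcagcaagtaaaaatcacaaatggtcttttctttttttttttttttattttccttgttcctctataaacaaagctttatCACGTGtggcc
Slc16a3: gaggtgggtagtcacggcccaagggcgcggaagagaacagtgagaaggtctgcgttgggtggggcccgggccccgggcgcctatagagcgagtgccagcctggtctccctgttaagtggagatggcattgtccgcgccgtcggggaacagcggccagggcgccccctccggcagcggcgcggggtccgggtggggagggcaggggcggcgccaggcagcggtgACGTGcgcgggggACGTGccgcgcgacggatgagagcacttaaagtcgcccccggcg
In *Slc38a5* and *Slco1c1* the match reads CACGTG, 1 palindrome counted on both strands, and *Slc16a3* has 2 copies of ACGTG shortly before its start. A match is a description of letters and not of a bound site. Over genes with a single window of 300 bases, ACGTG occurred in 20.2% of 516 promoters of genes called higher, 21.4% of 360 of genes called lower and 25.6% of 8797 of all genes tested. The TCF/LEF core, spelled CTTTGAA or CTTTGAT, occurred in 7.17%, 8.06% and 5.93%. Over the SLC carriers alone ACGTG occurred in 6 of 12 promoters of those called higher and in 9 of 24 of those called lower.

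Carriers of hormones and organic anions are described first. *Slco1c1*, which brings thyroxine across the barrier, measured 426, 318, 489 and 531 TPM in WT and 17, 7.92, 12.7 and 8.88 TPM in Gpr124-/- (log2 fold change −5.29 ± 0.33, edgeR adjusted p = 3.97e-07). *Slc22a8*, an exporter of organic anions and drugs, measured 297, 236, 337 and 327 TPM in WT and 13.9, 4.2, 5.16 and 5.65 TPM in Gpr124-/- (log2 fold change −5.42 ± 0.34, edgeR adjusted p = 3.93e-07). In both genes even the Gpr124-/- embryo nearest to WT, KE4, held a small part of the lowest WT level. *Slco2b1*, another organic anion carrier, was lower as well (185 to 272 TPM in WT and 73.8 to 121 TPM in Gpr124-/-, log2 fold change −1.29 ± 0.18, edgeR adjusted p = 0.000219). It was chosen after its values were seen. So was a list of thyroid hormone transport and response, of which 4 of 12 tested genes were lower and 0 higher, with or without the letter as a term, and the median was −1.36.

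Carriers of amino acids formed the next group. *Slc38a5*, which moves glutamine, asparagine and histidine, had the highest mean in WT of those named here. It measured 3581, 2861, 4271 and 3943 TPM in WT and 221, 62.9, 81.6 and 58.7 TPM in Gpr124-/- (log2 fold change −5.17 ± 0.41, edgeR adjusted p = 2.1e-06). *Slc7a8* (LAT2), a light chain that exchanges neutral amino acids, measured 182, 243, 243 and 253 TPM in WT and 25.7, 6.09, 11.8 and 7.88 TPM in Gpr124-/- (log2 fold change −4.23 ± 0.39, edgeR adjusted p = 8.19e-06). KE4 lay above ME1, ME4 and ME5 in both, yet far below every WT embryo. *Slc1a4*, a carrier of serine and alanine, was at 860 to 1163 TPM in WT and 90.4 to 195 TPM in Gpr124-/- (log2 fold change −3.05 ± 0.24, edgeR adjusted p = 2.03e-06). *Slc7a1*, the carrier of arginine and lysine, was at 435 to 498 TPM in WT and 52.9 to 119 TPM in Gpr124-/- (log2 fold change −2.72 ± 0.21, edgeR adjusted p = 1.85e-06). *Slc3a2*, the shared heavy chain of the LAT exchangers, fell less (log2 fold change −1.58 ± 0.17, edgeR adjusted p = 2.26e-05). Another partner, *Slc7a5* (LAT1), was not called (log2 fold change −1.19 ± 0.43, edgeR adjusted p = 0.0693) and is named after its values were seen. It measured 2736, 3157, 909 and 1378 TPM in WT and 979.5, 696, 1078 and 1023 TPM in Gpr124-/-, and JE1 and JE6 lay far above KE8 and LE6. A further 3 carriers of neutral amino acids, also picked after the fact, had no overlap between groups. They were *Slc38a3* (548 to 794 TPM in WT and 122 to 189 TPM in Gpr124-/-), *Slc38a2* (1088 to 1596 TPM in WT and 355 to 537 TPM in Gpr124-/-) and *Slc43a2* (90.8 to 132 TPM in WT and 19.7 to 27.8 TPM in Gpr124-/-). Their log2 fold changes were −2.25, −1.66 and −2.13.

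Smaller falls reached carriers of vitamins, metals and monocarboxylates, here named after their values were seen. *Slc5a6*, which takes up biotin and pantothenate, changed by −1.68 ± 0.15 on the log2 scale, *Slc19a3*, a thiamine carrier, by −1.75 ± 0.24, and *Slc52a2*, a riboflavin carrier, by −1.73 ± 0.16 (edgeR adjusted p = 5.63e-06, 0.000226 and 8.15e-06). *Slc31a1*, the copper carrier, was at 343 to 469 TPM in WT and 111 to 151.1 TPM in Gpr124-/- (log2 fold change −1.68 ± 0.14, edgeR adjusted p = 2.87e-06). *Slc16a1* (MCT1), which moves lactate and ketone bodies, fell (log2 fold change −1.38 ± 0.21, edgeR adjusted p = 0.000384). *Slc16a3* (MCT4), the lactate exporter of glycolytic cells, rose from 1.45, 1.29, 1.25 and 1.14 TPM in WT to 9.82, 16.6, 14 and 23.3 TPM in Gpr124-/- (log2 fold change 3.60 ± 0.26, edgeR adjusted p = 1.31e-06). *Slc44a5*, of the choline carrier family, measured 8.73, 7.34, 11.3 and 15 TPM in WT and 0.291, 0.446, 0.58 and 0.39 TPM in Gpr124-/- (log2 fold change −4.64 ± 0.32, edgeR adjusted p = 8.38e-07). It was the only one of the 13 falls given here in which KE4 was the lowest library.

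Among the carriers called higher, *Slc6a4*, the serotonin transporter that platelets use, and *Slc2a3*, a glucose carrier of neurons and platelets, moved with the platelet markers. *Slc6a4* measured 9.18, 8.87, 10.9 and 16.9 TPM in WT and 17.5, 66, 58.6 and 60.7 TPM in Gpr124-/-. *Slc2a3* measured 9.23, 6.92, 10.1 and 13.8 TPM in WT and 13.2, 63.6, 49.9 and 55 TPM in Gpr124-/-. In both, KE4 lay at or just beyond the WT range and the 3 M embryos stood well above it, and neither was called with the letter as a term (edgeR adjusted p = 0.444 and 0.56). The ABC transporters were mixed, with 4 of 35 higher and 3 lower, and 2 and 5 with the letter as a term. *Abca1*, which exports cholesterol, was lower (209 to 244 TPM in WT and 58.5 to 91.1 TPM in Gpr124-/-, log2 fold change −1.69 ± 0.13, edgeR adjusted p = 2.39e-06). *Abcc6*, an exporter of ATP, was lower too (5.32 to 16.9 TPM in WT and 1.15 to 2.22 TPM in Gpr124-/-, log2 fold change −2.61 ± 0.32, edgeR adjusted p = 8.03e-05).

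Lipid handling split into members that fell and members that rose. Of 29 tested genes of lipid uptake and oxidation, 10 were lower (34.5%) and 6 higher (20.7%), with a median of −0.36, and with the letter as a term the counts were 9 and 4 and with KE4 alone 6 and 2. *Apod*, a lipocalin that carries small lipids, measured 806, 652, 741 and 871 TPM in WT and 70.7, 28.8, 38.4 and 36 TPM in Gpr124-/- (log2 fold change −4.19 ± 0.24, edgeR adjusted p = 2.43e-07). *Angptl4*, an inhibitor of lipoprotein lipase, was at 186 to 244 TPM in WT and 13.8 to 20.4 TPM in Gpr124-/- (log2 fold change −3.73 ± 0.22, edgeR adjusted p = 2.89e-07). Every Gpr124-/- embryo lay below every WT embryo in both, and KE4 was again the nearest. *Ppard*, a nuclear receptor that senses fatty acids, fell too (15.2 to 18.6 TPM in WT and 3.33 to 4.67 TPM in Gpr124-/-, log2 fold change −2.16 ± 0.14, edgeR adjusted p = 6.31e-07).

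Several of the members that rose are known from peripheral capillaries. *Fabp4*, a fatty acid binding protein of fat and capillaries, was near 0 in WT (0.0286, 0.034, 0.0336 and 0.0677 TPM) and at 1.27, 5.72, 3.66 and 5.55 TPM in Gpr124-/- (log2 fold change 6.47 ± 0.65, edgeR adjusted p = 1.47e-05). *Gpihbp1*, which carries lipoprotein lipase to the capillary lumen, measured 27.8, 18.2, 22.2 and 22.7 TPM in WT and 179, 314, 278 and 333 TPM in Gpr124-/- (log2 fold change 3.57 ± 0.21, edgeR adjusted p = 2.75e-07). *Cd36*, a fatty acid receptor, and *Pparg*, the nuclear receptor of fat cells, were chosen after their values were seen. *Cd36* was at 0.72 to 1.07 TPM in WT and 4.19 to 9.92 TPM in Gpr124-/- (log2 fold change 2.91 ± 0.38, edgeR adjusted p = 0.000145). *Pparg* was at 0 to 0.207 TPM in WT and 1.17 to 4.7 TPM in Gpr124-/- (log2 fold change 5.21 ± 0.71, edgeR adjusted p = 0.000195). Levels of *Fabp4* and *Pparg* were low in all embryos, so the folds rest on few reads in WT. *Lpl*, the lipase that Gpihbp1 holds, was called lower (1.55 to 2.92 TPM in WT and 0.735 to 1.32 TPM in Gpr124-/-, log2 fold change −1.17 ± 0.23, edgeR adjusted p = 0.00318), so the parts of that system did not move one way.

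Of 29 tested genes of amine, peptide and drug metabolism, most of them enzymes of barrier endothelium, 13 were lower (44.8%), 0 higher and 16 not called, with a median log2 fold change of −0.89. The 0 higher came to at most 2 without JE1, JE6, KE8, LE6 or KE4. With the letter as a term 10 were lower, and with KE4 alone 10. *Dpp4*, a peptidase of the cell surface, measured 12.3, 19.2, 36.7 and 26.3 TPM in WT and 2.03, 1.01, 1.97 and 1.37 TPM in Gpr124-/- (log2 fold change −3.92 ± 0.44, edgeR adjusted p = 3.61e-05). *Car2*, a carbonic anhydrase, measured 508, 416, 448 and 471 TPM in WT and 79.7, 54.6, 48.3 and 38.4 TPM in Gpr124-/- (log2 fold change −3.11 ± 0.17, edgeR adjusted p = 2.38e-07). *Stra6*, the receptor through which cells take up retinol, measured 64.9, 50.5, 60.9 and 78.9 TPM in WT and 6.47, 3.96, 6.11 and 6.55 TPM in Gpr124-/- (log2 fold change −3.50 ± 0.25, edgeR adjusted p = 1.1e-06). In these 3 every Gpr124-/- embryo lay far below every WT embryo. *Spock2*, a proteoglycan of the matrix, fell (384 to 539 TPM in WT and 21.1 to 54.1 TPM in Gpr124-/-, log2 fold change −3.74 ± 0.27, edgeR adjusted p = 1.12e-06). Among members named after the fact, *Ddc*, which makes dopamine and serotonin from their precursors, was at 12.8 to 20.4 TPM in WT and 1.42 to 3.53 TPM in Gpr124-/- (log2 fold change −2.75 ± 0.30, edgeR adjusted p = 3.49e-05). *Maoa*, which breaks amines down, was at 190.1 to 291 TPM in WT and 56 to 127 TPM in Gpr124-/- (log2 fold change −1.60 ± 0.20, edgeR adjusted p = 0.000105).

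Other large falls had no list of their own. *Ccdc141*, a coiled-coil protein, measured 66.1, 53.3, 86.3 and 81 TPM in WT and 4.07, 1.63, 2.49 and 2.06 TPM in Gpr124-/- (log2 fold change −4.85 ± 0.29, edgeR adjusted p = 2.96e-07). *Far2*, which reduces fatty acyl-CoA to fatty alcohols, measured 102, 78.6, 114 and 107 TPM in WT and 6.86, 3.87, 3.89 and 1.99 TPM in Gpr124-/- (log2 fold change −4.64 ± 0.31, edgeR adjusted p = 6.91e-07). *Serpinb6b*, a serine protease inhibitor, was at 17.9 to 40.7 TPM in WT and 0.816 to 2.67 TPM in Gpr124-/- (log2 fold change −4.54 ± 0.34, edgeR adjusted p = 1.46e-06). These 3 shared the order seen above, with KE4 the highest of the Gpr124-/- embryos. *Fndc1*, a fibronectin type III protein, did not: it measured 27.5, 28.5, 11.9 and 15.6 TPM in WT and 1.15, 1.46, 1.53 and 0.695 TPM in Gpr124-/- (log2 fold change −4.17 ± 0.39, edgeR adjusted p = 7.98e-06), and within WT JE1 and JE6 lay above KE8 and LE6.

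Transcription factors moved in both directions. *Tbx3*, a T-box repressor, measured 28.7, 31.1, 27.7 and 27.6 TPM in WT and 6.32, 3.88, 3.65 and 2.55 TPM in Gpr124-/- (log2 fold change −2.87 ± 0.24, edgeR adjusted p = 3.06e-06). *Foxf1* and *Foxf2*, forkhead factors of which *Foxf2* is also a marker of pericytes, were lower, but their WT levels were spread. *Foxf2* measured 341, 301, 192 and 180.2 TPM in WT and 107, 71.4, 98.1 and 83.9 TPM in Gpr124-/- (log2 fold change −1.56 ± 0.29, edgeR adjusted p = 0.00199, and adjusted p = 0.0723 with the letter as a term). *Foxf1* measured 34.9, 39.4, 16 and 16.4 TPM in WT and 6.66, 6.29, 4.8 and 6.11 TPM in Gpr124-/- (log2 fold change −2.23 ± 0.45, edgeR adjusted p = 0.0032). The Gpr124-/- embryos lay within a narrow range, and JE1 and JE6 lay well above KE8 and LE6. The summed pericyte markers were also lower in Gpr124-/-, but *Foxf2* is on that list and held most of the sum in every library. That sum is therefore not separate from *Foxf2*, and the part of pericytes in the *Foxf2* value was not tested. *Meox2*, a homeobox factor of muscle and heart capillaries, rose from 0.544, 0.842, 1.02 and 1.22 TPM to 12.2, 9.61, 13.9 and 11.1 TPM (log2 fold change 3.64 ± 0.23, edgeR adjusted p = 4.62e-07), with all 4 Gpr124-/- embryos alike. The endothelial factor *Sox18* was not called (775 to 962 TPM in WT and 859.6 to 935 TPM in Gpr124-/-, log2 fold change −0.06 ± 0.09, edgeR adjusted p = 0.711). *Sox7*, its relative, was not called for its size alone (449.5 to 484 TPM in WT and 284 to 300 TPM in Gpr124-/-, log2 fold change −0.72 ± 0.07, edgeR adjusted p = 1.05e-05). Of 32 nuclear receptors 5 were lower, among them *Esrrg*, *Nr1h3* and *Rora* (log2 fold changes −1.63, −1.61 and −1.17), and 3 higher. The counts were 3 and 4 with the letter as a term, where *Nr1h3* was not called (edgeR adjusted p = 0.261).

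**Figure D3:**
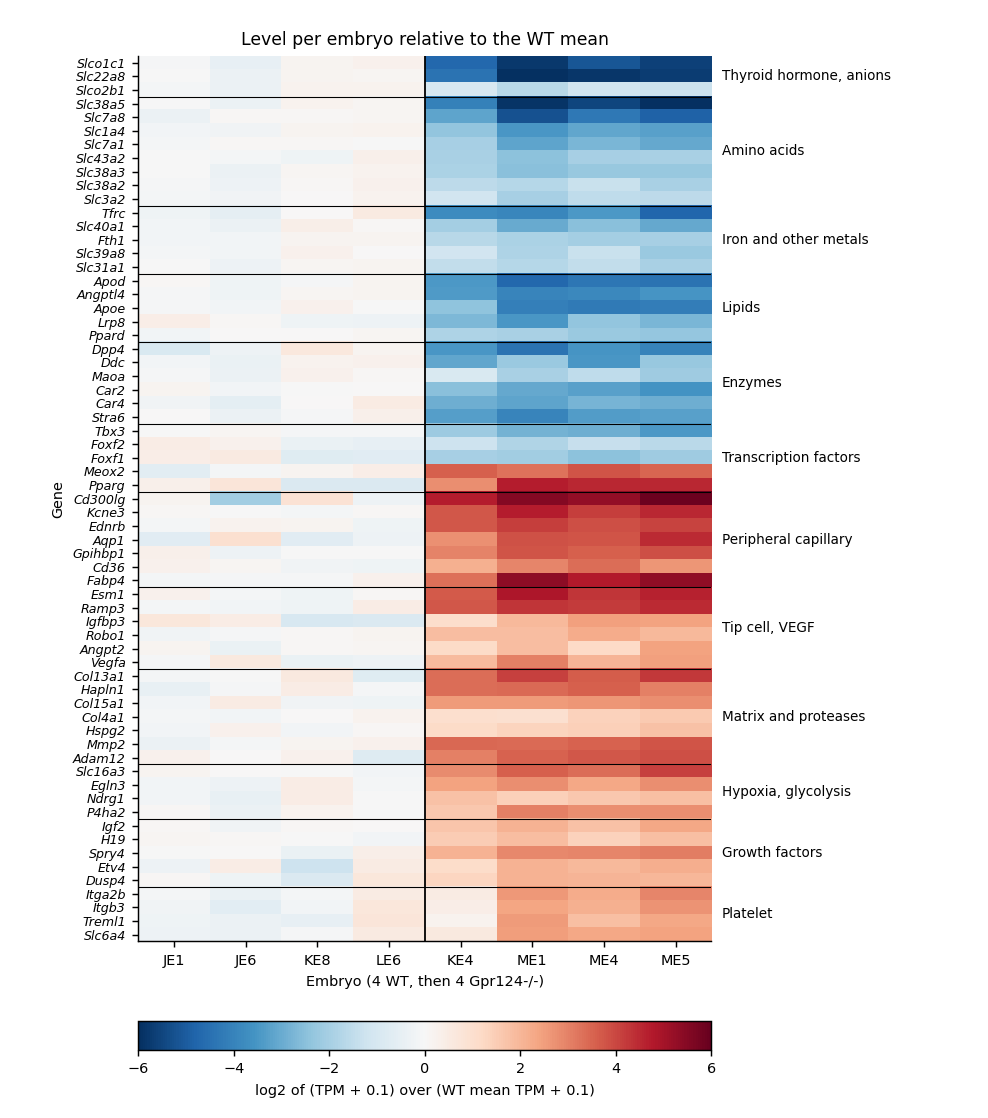
Level of 65 genes grouped by role, in each of the 8 embryos, as the log2 of TPM + 0.1 over the WT mean TPM + 0.1, on a colour scale that ends at −6 (blue) and 6 (red). Genes were picked after their values were seen to show each role. Carriers, enzymes and lipid genes are blue in all 4 Gpr124-/- embryos, and the platelet genes are red in ME1, ME4 and ME5 and near white in KE4.

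Among the functions, peripheral capillary genes rose often. Of 27 tested, 13 were called higher (48.1%) and 2 lower (7.41%, or 1 without KE8), with a median log2 fold change of 1.17. The count was 13 with the letter as a term as well. In KE4 itself all 13 lay beyond the WT range, where 814 of all 944 genes called higher did. *Cd300lg*, a receptor of capillary endothelium, was near 0 in WT at 0.891, 0.112, 1.54 and 0.611 TPM and stood at 22.9, 40.6, 34 and 52.9 TPM in Gpr124-/- (log2 fold change 5.54 ± 0.55, edgeR adjusted p = 1.42e-05). *Kcne3*, a subunit of potassium channels, rose from a moderate level. It measured 40.8, 37.9, 35.3 and 40.1 TPM in WT and 519, 1010, 692 and 898 TPM in Gpr124-/- (log2 fold change 4.31 ± 0.23, edgeR adjusted p = 1.99e-07). *Ednrb*, the type B endothelin receptor, measured 10.6, 13.3, 13 and 9.6 TPM in WT and 154, 211, 169.7 and 197 TPM in Gpr124-/- (log2 fold change 3.93 ± 0.18, edgeR adjusted p = 7.8e-08). The lowest Gpr124-/- embryo in each of the 3 was KE4, and it still lay far above the highest WT embryo. *Aqp1*, a water channel of peripheral capillaries that choroid plexus also expresses, measured 3.47, 11.1, 3.55 and 4.57 TPM in WT and 38.6, 81.9, 79.2 and 128 TPM in Gpr124-/- (log2 fold change 3.79 ± 0.52, edgeR adjusted p = 0.000197). The choroid plexus markers as a whole came to 128 to 845 TPM in WT and 113 to 415 TPM in Gpr124-/-. *Ttr*, their most abundant gene, measured 225, 798, 516 and 115 TPM in WT and 221, 88, 29 and 272 TPM in Gpr124-/-. *Hpgd*, which breaks prostaglandins down, belonged to this group as well (3.27 to 9.04 TPM in WT and 24.2 to 44.6 TPM in Gpr124-/-, log2 fold change 2.84 ± 0.29, edgeR adjusted p = 1.86e-05). *Car4*, a carbonic anhydrase named after its value was seen, was on the list but fell (8.55 to 18.2 TPM in WT and 1.33 to 1.76 TPM in Gpr124-/-, log2 fold change −3.05 ± 0.29, edgeR adjusted p = 8.71e-06).

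Tip cells lead a growing sprout. Of 24 tested, 6 were higher (25.0%) and 0 lower, with a median of 0.61, and the counts were 5 with the letter as a term and 4 with KE4 alone. *Esm1*, a secreted proteoglycan that VEGF induces, measured 25.8, 19.6, 17.7 and 22.8 TPM in WT and 279.8, 623, 417 and 527 TPM in Gpr124-/- (log2 fold change 4.40 ± 0.27, edgeR adjusted p = 3.44e-07). *Ramp3*, which turns a calcitonin-type receptor into one for adrenomedullin, measured 2.6, 2.55, 2.4 and 3.86 TPM in WT and 38.6, 58.1, 53.8 and 65.5 TPM in Gpr124-/- (log2 fold change 4.21 ± 0.23, edgeR adjusted p = 1.99e-07). *Robo1*, a guidance receptor for Slit proteins, measured 7.26, 8.14, 9.14 and 9.69 TPM in WT and 30.9, 31.4, 39.9 and 33.5 TPM in Gpr124-/- (log2 fold change 1.95 ± 0.14, edgeR adjusted p = 1.26e-06). The groups were wide apart in all 3. *Igfbp3*, which binds insulin-like growth factors, was spread within WT. It measured 298, 252, 97.7 and 105 TPM in WT and 397, 718, 1044 and 1006 TPM in Gpr124-/- (log2 fold change 2.01 ± 0.52, edgeR adjusted p = 0.0148). KE4 lay just above JE1.

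Of the VEGF and angiopoietin genes, 2 of 16 were called and both were higher, and 1 was called with the letter as a term. *Vegfa*, the ligand that drives sprouting, measured 2.22, 3.53, 1.72 and 1.84 TPM in WT and 8.92, 19.9, 9.99 and 13.3 TPM in Gpr124-/- (log2 fold change 2.44 ± 0.36, edgeR adjusted p = 0.000376). *Angpt2*, which loosens vessels, measured 32.9, 21.9, 30.3 and 32 TPM in WT and 65, 105, 67.2 and 158 TPM in Gpr124-/- (log2 fold change 1.74 ± 0.27, edgeR adjusted p = 0.000508, and adjusted p = 0.234 with the letter as a term). In *Angpt2*, KE4 and ME4 lay close to each other and below ME1 and ME5.

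Matrix genes and their proteases rose more often than they fell. Of 49 tested genes of basement membrane and matrix, 13 were higher (26.5%) and 2 lower (4.08%), with a median of 0.35, and the summed level was 12560 to 15550 TPM in WT and 18990 to 26030 TPM in Gpr124-/-. With the letter as a term 7 were higher and 3 lower. In KE4 itself 12 of the 13 lay beyond the WT range, near the share over all genes called higher (814 of 944). *Col13a1*, a collagen anchored in the membrane, measured 0.753, 0.83, 1.28 and 0.462 TPM in WT and 9.54, 16.1, 11.4 and 17.4 TPM in Gpr124-/- (log2 fold change 4.0 ± 0.32, edgeR adjusted p = 2.21e-06). *Hapln1*, which links hyaluronan to proteoglycans, measured 2.29, 2.99, 4.26 and 2.98 TPM in WT and 33, 33.8, 39.3 and 26.1 TPM in Gpr124-/- (log2 fold change 3.36 ± 0.25, edgeR adjusted p = 1.46e-06). *Col15a1*, a collagen of the outer basement membrane, measured 18.4, 28.6, 17.6 and 17.3 TPM in WT and 119.8, 119, 128 and 144 TPM in Gpr124-/- (log2 fold change 2.58 ± 0.19, edgeR adjusted p = 1.48e-06). The 4 Gpr124-/- embryos were alike in *Hapln1* and *Col15a1*. Abundant parts of the basement membrane, named after the fact, rose by less. *Col4a1* was at 1707 to 2197 TPM in WT and 3663 to 5724 TPM in Gpr124-/- (log2 fold change 1.22 ± 0.17, edgeR adjusted p = 0.000276, and 0.91 with the letter as a term). *Hspg2* (perlecan) was at 80.1 to 106 TPM in WT and 202 to 306 TPM in Gpr124-/- (log2 fold change 1.39 ± 0.16, edgeR adjusted p = 5.03e-05). *Col4a3*, the collagen of specialised basement membranes, fell (2.08 to 2.81 TPM in WT and 0.181 to 0.658 TPM in Gpr124-/-, log2 fold change −2.53 ± 0.37, edgeR adjusted p = 0.000311, and adjusted p = 0.0833 with the letter as a term).

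Of 48 tested proteases of the matrix and their inhibitors, 16 were higher (33.3%) and 2 lower (1 to 4 without KE8 or KE4), with a median of 0.47. The count of higher genes fell to 10 without ME5, to 7 with the letter as a term and to 5 with KE4 alone. In KE4 itself 14 of the 16 lay beyond the WT range, near the share over all genes called higher (814 of 944). *Mmp2*, a gelatinase that cuts collagen IV, measured 14.4, 17, 20.5 and 22.4 TPM in WT and 203, 198, 218 and 258 TPM in Gpr124-/- (log2 fold change 3.52 ± 0.16, edgeR adjusted p = 7.8e-08). *Adam12*, a metalloprotease of the cell surface, measured 1.65, 1.43, 1.7 and 0.762 TPM in WT and 11.8, 16.9, 19.3 and 21.9 TPM in Gpr124-/- (log2 fold change 3.62 ± 0.36, edgeR adjusted p = 1.45e-05). *Plau*, the urokinase that activates plasminogen, measured 0.548, 0.587, 0.643 and 0.13 TPM in WT and 3.62, 5.52, 2.89 and 7.13 TPM in Gpr124-/- (log2 fold change 3.27 ± 0.50, edgeR adjusted p = 0.000446, and adjusted p = 0.185 with the letter as a term). The groups were far apart, and in *Mmp2* KE4 stood with the others. *Mmp9*, the other gelatinase, was called lower but varied within WT. It measured 5.4, 2.89, 9.36 and 1.29 TPM in WT and 0.684, 0.954, 0.468 and 0.324 TPM in Gpr124-/- (log2 fold change −3.00 ± 0.80, edgeR adjusted p = 0.0177, and adjusted p = 0.11 with the letter as a term). The groups were separated by a small gap at a low level, and the call was lost without KE8, ME4 or ME5. *Olfml2b*, a secreted olfactomedin protein, was among the 15 largest rises. It measured 3.77, 3.65, 4.09 and 4.52 TPM in WT and 28.1, 59.4, 50.1 and 70.4 TPM in Gpr124-/- (log2 fold change 3.67 ± 0.27, edgeR adjusted p = 1.31e-06).

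Genes that bind the matrix to the cell were less clear. Of 41 tested integrins and focal adhesion genes, 8 were higher and 1 lower in the main fit, and 2 and 0 with the letter as a term, and the 1 lower ranged from 0 to 2 without KE8, KE4, ME1 or ME5. *Tns3*, a tensin of adhesion sites, rose in every Gpr124-/- embryo (0.815, 0.424, 0.875 and 0.68 TPM in WT and 4.22, 7.41, 5.69 and 7.38 TPM in Gpr124-/-, log2 fold change 3.12 ± 0.26, edgeR adjusted p = 3.61e-06). *Itgb4*, an integrin that binds laminin, rose by less (1.29 to 1.58 TPM in WT and 2.98 to 8.8 TPM in Gpr124-/-, log2 fold change 1.98 ± 0.28, edgeR adjusted p = 0.000241, and adjusted p = 0.143 with the letter as a term). *Itga2b* and *Itgb3*, the 2 subunits of the platelet fibrinogen receptor, had the pattern of the platelet markers. *Itga2b* measured 27.5, 23.1, 27.7 and 42.7 TPM in WT and 42.6, 184, 143 and 234 TPM in Gpr124-/-. *Itgb3* measured 22.5, 17.2, 23.1 and 42.4 TPM in WT and 34.6, 138, 117 and 171 TPM in Gpr124-/-. KE4 lay within the WT range for both, and with the letter as a term their adjusted p values were 0.339 and 0.315.

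Prostaglandin and tone genes differed by member. *Ptges*, the synthase of prostaglandin E2, was among the largest falls. It measured 74.3, 56.3, 71.6 and 80.3 TPM in WT and 1.85, 0.763, 0.703 and 1.38 TPM in Gpr124-/- (log2 fold change −5.95 ± 0.37, edgeR adjusted p = 3.97e-07). *Ptgs1*, the cyclooxygenase upstream of it, rose (12.4, 9.64, 14.7 and 16.8 TPM and 52.5, 67.3, 68.2 and 76 TPM, log2 fold change 2.28 ± 0.17, edgeR adjusted p = 1.5e-06). *Hpgd*, which inactivates prostaglandins, rose as given above. In all 4 embryos the synthase was lower than in WT and the enzymes before and after it were higher. Over the list, 7 of 21 were higher and 2 lower in the main fit, but 3 and 3 with the letter as a term. *Tbxas1*, the thromboxane synthase of platelets (1.31 to 2.42 TPM in WT and 2.3 to 10.3 TPM in Gpr124-/-), was at 0.71 (adjusted p = 0.289) with the letter, and KE4 lay within the WT range. Of 27 vasoactive genes 4 were higher, and 3 with the letter as a term. *Bdkrb2*, a receptor for bradykinin, rose (7.91 to 12.2 TPM in WT and 24 to 49.4 TPM in Gpr124-/-, log2 fold change 1.92 ± 0.22, edgeR adjusted p = 4.91e-05).

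Genes of glycolysis and the response to low oxygen were raised in part. Of 43 tested, 11 were higher (25.6%) and 1 lower (2.33%), with a median of 0.40 and a summed level of 4830 to 6311 TPM in WT and 7057 to 9186 TPM in Gpr124-/-. The counts were 4 and 1 with the letter as a term. In KE4 itself 10 of the 11 lay beyond the WT range, near the share over all genes called higher (814 of 944). Besides *Slc16a3* and *Vegfa*, *Egln3*, a prolyl hydroxylase that hypoxia induces, rose (5.21, 4.76, 8.03 and 5.37 TPM in WT and 31.2, 41.4, 29.8 and 40.4 TPM in Gpr124-/-, log2 fold change 2.58 ± 0.22, edgeR adjusted p = 4.56e-06). *P4ha2*, which hydroxylates collagen, did so at a low level (0.367 to 0.604 TPM in WT and 1.75 to 4.72 TPM in Gpr124-/-, log2 fold change 2.83 ± 0.33, edgeR adjusted p = 5.85e-05, and adjusted p = 0.0823 with the letter as a term). *Ndrg1*, a stress gene named after its values were seen, was at 6.58 to 12.5 TPM in WT and 24.7 to 32.1 TPM in Gpr124-/- (log2 fold change 1.64 ± 0.15, edgeR adjusted p = 8.27e-06). The lone member called lower was *Tfrc*, the transferrin receptor, which hypoxia raises in many cells. It measured 243, 199.9, 294 and 416 TPM in WT and 20.7, 18.9, 26.6 and 10.6 TPM in Gpr124-/- (log2 fold change −3.94 ± 0.36, edgeR adjusted p = 7.62e-06). *Slc2a3* counts among the 11 and moved with the platelet markers.

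Growth factor genes pointed mostly up. Of 20 genes of the insulin-like growth factor system, 7 were higher (35.0%) and 1 lower (0 to 2 without JE6, KE8 or KE4), with a median of 0.61, and 7 and 0 with the letter as a term. *Igf2*, a fetal growth factor, measured 219, 183, 218 and 213 TPM in WT and 662, 892, 714 and 1025 TPM in Gpr124-/- (log2 fold change 1.95 ± 0.15, edgeR adjusted p = 1.83e-06). *Igfbp5*, a binding protein, rose at a low level (0.351 to 0.789 TPM in WT and 2.07 to 3.05 TPM in Gpr124-/-, log2 fold change 1.86 ± 0.25, edgeR adjusted p = 0.000186). *Irs2*, an adaptor of the insulin receptor, measured 2.35, 2.01, 1.05 and 1.37 TPM in WT and 2.27, 10.6, 6.03 and 11.7 TPM in Gpr124-/- (log2 fold change 2.14 ± 0.46, edgeR adjusted p = 0.00501, and adjusted p = 0.26 with the letter as a term), and KE4 lay within the WT range. Of 39 other growth factor genes 11 were higher and 4 lower, and 6 and 3 with the letter as a term. *Spry4*, a feedback inhibitor of receptor kinases, measured 7.7, 7.93, 6.01 and 10 TPM in WT and 33.5, 58.7, 61.4 and 67.6 TPM in Gpr124-/- (log2 fold change 2.77 ± 0.24, edgeR adjusted p = 4.33e-06). *Etv4* and *Dusp4*, named after the fact, rose by 1.87 ± 0.38 and 1.90 ± 0.35 on the log2 scale (edgeR adjusted p = 0.00379 and 0.00174). *Fgf1* rose too (0.294 to 0.427 TPM in WT and 2.12 to 3.09 TPM in Gpr124-/-, log2 fold change 2.84 ± 0.27, edgeR adjusted p = 1.07e-05). *Fgfr4*, a receptor of fibroblast growth factors, fell from 10.7, 6.6, 9.52 and 12.8 TPM to 1.47, 0.265, 0.156 and 0.231 TPM (log2 fold change −4.28 ± 0.56, edgeR adjusted p = 0.000137). *Tgfa*, a ligand of the EGF receptor, fell as well (13.5 to 19.2 TPM in WT and 1.27 to 2.38 TPM in Gpr124-/-, log2 fold change −3.08 ± 0.25, edgeR adjusted p = 2.39e-06).

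*Ccn4*, a secreted CCN protein, was the second of the 15 largest rises listed above, which were limited to a mean CPM of at least 8 and no overlap. It measured 0.349, 0.166, 1.04 and 0.303 TPM in WT and 7.05, 16.9, 10.7 and 17.1 TPM in Gpr124-/- (log2 fold change 4.79 ± 0.50, edgeR adjusted p = 2.13e-05). On its list of YAP targets and CCN genes 7 of 32 were higher (21.9%) and 1 lower (up to 3 without JE1, JE6 or KE4), and 5 were higher with the letter as a term. *Nuak2*, a kinase that YAP induces, measured 1.21, 0.897, 1.23 and 1.51 TPM in WT and 4.59, 10.2, 8.17 and 11.4 TPM in Gpr124-/- (log2 fold change 2.80 ± 0.31, edgeR adjusted p = 3.31e-05). Of 45 TGF-β and BMP genes 5 were higher and 1 lower, but the 5 ranged from 2 to 8 as single libraries were left out, and it moved most without KE8, LE6, KE4, ME4 or ME5. The 1 lower ranged from 0 to 3 and moved without JE1, JE6 or KE4. The letter as a term gave 4 and 0. *Tgfbi*, a matrix protein that TGF-β induces, rose in all 4 embryos (69 to 97.4 TPM in WT and 190.3 to 244 TPM in Gpr124-/-, log2 fold change 1.33 ± 0.12, edgeR adjusted p = 7.18e-06). *Smad3*, which carries its signal, fell (36.3 to 48.5 TPM in WT and 18.9 to 24.9 TPM in Gpr124-/-, log2 fold change −1.04 ± 0.14, edgeR adjusted p = 0.00021, and adjusted p = 0.189 with the letter as a term), but its fold was just under the threshold without JE1, JE6 or ME1.

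Guidance and adhesion families held single large changes. *Sema3f*, a secreted semaphorin, measured 5.66, 5, 1.22 and 2.46 TPM in WT and 15.4, 38.5, 44 and 64.4 TPM in Gpr124-/- (log2 fold change 3.45 ± 0.58, edgeR adjusted p = 0.000975). *Plxnd1*, an endothelial semaphorin receptor, measured 148, 152, 109 and 81.2 TPM in WT and 280.4, 327, 416 and 514 TPM in Gpr124-/- (log2 fold change 1.60 ± 0.28, edgeR adjusted p = 0.00142). In both, JE1 and JE6 lay above KE8 and LE6 within WT. Of 27 semaphorins and plexins 5 were higher and 2 lower, and 4 and 0 with the letter as a term, and the 2 lower came to 1 without JE1, JE6, KE8, LE6, ME1 or ME5. Of 70 cadherins and protocadherins 6 were higher and 3 lower, and 5 and 1 with it. *Cdh13* (T-cadherin) rose (6.46 to 10.6 TPM in WT and 39.9 to 68 TPM in Gpr124-/-, log2 fold change 2.74 ± 0.18, edgeR adjusted p = 6.6e-07). *Pcdh17*, a protocadherin, rose too (20.7 to 21.5 TPM in WT and 67.4 to 97.2 TPM in Gpr124-/-, log2 fold change 1.86 ± 0.12, edgeR adjusted p = 4.38e-07). *Cdh11*, a cadherin of mesenchyme, fell (26 to 34.4 TPM in WT and 5.22 to 8.39 TPM in Gpr124-/-, log2 fold change −2.25 ± 0.15, edgeR adjusted p = 6.6e-07). *Igsf5*, an adhesion protein of tight junctions, fell (14.1 to 23.5 TPM in WT and 1.15 to 1.78 TPM in Gpr124-/-, log2 fold change −3.72 ± 0.32, edgeR adjusted p = 4.08e-06). *Cadm1*, an adhesion molecule of the immunoglobulin family, fell as well (41 to 48.9 TPM in WT and 7.61 to 19.2 TPM in Gpr124-/-, log2 fold change −2.02 ± 0.21, edgeR adjusted p = 1.78e-05). *Kirrel*, a nephrin-like adhesion protein, rose (2.01 to 4.44 TPM in WT and 15.6 to 17.6 TPM in Gpr124-/-, log2 fold change 2.35 ± 0.29, edgeR adjusted p = 9.61e-05). The ephrins and Eph receptors had 1 of 19 higher and 2 lower, and 1 and 1 with the letter as a term, with *Epha7* the largest (3.94 to 7.12 TPM in WT and 0.481 to 0.84 TPM in Gpr124-/-, log2 fold change −3.02 ± 0.26, edgeR adjusted p = 4.15e-06). The 1 higher came to 2 without KE4.

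Of 41 potassium channel genes, 6 were higher (14.6%) and 2 lower (4.88%), and 3 and 1 with the letter as a term. The 2 lower came to 0 without KE8 or ME4 and to 1 without JE1, JE6, ME1 or ME5. Of 34 calcium and TRP channel genes, 5 were higher (14.7%) and 3 lower (8.82%), and 5 and 1 with the letter, and the 3 lower came to 1 without ME4. *Piezo2*, a channel opened by stretch, rose in all 4 embryos to a like level. It measured 11.9, 11.7, 8.92 and 12 TPM in WT and 66.1, 58.1, 67.2 and 58 TPM in Gpr124-/- (log2 fold change 2.44 ± 0.12, edgeR adjusted p = 8.82e-08). *Trpm6*, a magnesium channel, fell (4.69 to 11.1 TPM in WT and 0.605 to 1.04 TPM in Gpr124-/-, log2 fold change −3.08 ± 0.28, edgeR adjusted p = 7.25e-06). *Kcna3*, a potassium channel of lymphocytes and platelets, measured 14.3, 13.1, 3.17 and 6.63 TPM in WT and 17, 78.4, 65.6 and 74.2 TPM in Gpr124-/- (log2 fold change 2.61 ± 0.60, edgeR adjusted p = 0.00747). KE4 lay near JE1 and far above KE8, and the gene was still called with the letter as a term (log2 fold change 2.38, edgeR adjusted p = 0.000511). *Trpc1*, a cation channel at a low level (0.151 to 0.607 TPM in WT and 0.259 to 2.37 TPM in Gpr124-/-, log2 fold change 2.04 ± 0.59, edgeR adjusted p = 0.0286), was called in 2 of the 8 fits without 1 library. It was not called with the letter as a term (edgeR adjusted p = 0.87) and was reversed with KE4 alone (log2 fold change −0.49, adjusted p = 0.888).

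Genes of immunity and blood cells need the platelet and macrophage values beside them. *Irf8*, a transcription factor of macrophages and lymphocytes, was the third of the 15 largest rises listed above (mean CPM of at least 8, no overlap). It measured 0.127, 0.282, 0.363 and 0.345 TPM in WT and 3.85, 9.41, 4.46 and 10.5 TPM in Gpr124-/- (log2 fold change 4.64 ± 0.50, edgeR adjusted p = 2.68e-05). Every Gpr124-/- embryo lay above WT, KE4 included. The summed macrophage markers of KE4 were within the WT range, but KE4 lay beyond it in all 4 of the 9 tested markers called higher. *Dock8*, a guanine nucleotide exchange factor of leukocytes, measured 1.22, 0.939, 0.308 and 0.35 TPM in WT and 3.83, 10.6, 9.09 and 13.8 TPM in Gpr124-/- (log2 fold change 3.67 ± 0.52, edgeR adjusted p = 0.000261). The part of blood cells in both was not tested. *Ttc9*, a protein with tetratricopeptide repeats, measured 2.45, 2.4, 0.738 and 0.67 TPM in WT and 22.9, 31.1, 32.5 and 37.4 TPM in Gpr124-/- (log2 fold change 4.23 ± 0.53, edgeR adjusted p = 9.95e-05), with JE1 and JE6 above KE8 and LE6.

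Of 39 genes of leukocyte adhesion and inflammation 8 were higher and 5 lower, and 2 and 3 with the letter as a term. *Anxa1*, an inhibitor of inflammation, rose (17.4 to 29.6 TPM in WT and 92.5 to 142 TPM in Gpr124-/-, log2 fold change 2.48 ± 0.19, edgeR adjusted p = 1.86e-06). *Osmr*, the oncostatin M receptor, and *Cxcl12*, a chemokine that endothelium secretes, fell. *Osmr* was at 23.8 to 34 TPM in WT and 4.78 to 7.74 TPM in Gpr124-/- (log2 fold change −2.33 ± 0.22, edgeR adjusted p = 9.21e-06). *Cxcl12* was at 36.2 to 60.9 TPM in WT and 11.7 to 15.8 TPM in Gpr124-/- (log2 fold change −1.77 ± 0.15, edgeR adjusted p = 2.97e-06). *Ifitm2*, an antiviral membrane protein, measured 239, 259.9, 266 and 268 TPM in WT and 985, 1007, 1020 and 1119 TPM in Gpr124-/- (log2 fold change 1.96 ± 0.10, edgeR adjusted p = 9.85e-08), with 4 alike values in each group. *H2-K1* and *H2-Q4*, class I genes of the major histocompatibility complex, were called lower, but both belong to a family of near-identical copies and KE8 differed from the other WT embryos. *H2-Q4* measured 16.4, 13.5, 1.33 and 12.5 TPM in WT and 1.53, 1.01, 1.54 and 1.51 TPM in Gpr124-/-. Neither was called with the letter as a term, where the log2 fold change was 0.15 for *H2-Q4* (adjusted p = 0.955) and −0.58 for *H2-K1* (adjusted p = 0.489).

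Coagulation genes held some members with the pattern of the platelet markers and others without it. Of 25 tested, 8 were higher (32.0%) and 0 lower in the main fit, 2 higher and 1 lower with the letter as a term, and 1 and 1 with KE4 alone. KE4 lay beyond the WT range in 5 of the 8, against 1 of the 12 platelet markers called higher and 814 of all 944 genes called higher. *F2rl2*, a thrombin receptor of platelets, measured 10.9, 7.33, 10.7 and 14.5 TPM in WT and 13.8, 76, 46.8 and 57.2 TPM in Gpr124-/- (log2 fold change 2.15 ± 0.42, edgeR adjusted p = 0.00257, and adjusted p = 0.785 with the letter as a term). KE4 lay within the WT range. *S100a10*, a partner of annexin A2 that binds plasminogen, had another pattern. It measured 36.4, 43.8, 66.5 and 44.4 TPM in WT and 332, 428, 384 and 453 TPM in Gpr124-/- (log2 fold change 3.03 ± 0.18, edgeR adjusted p = 3.41e-07), with KE4 close to the M embryos. *Tfpi2*, an inhibitor of serine proteases, lay between (19.5, 11, 18 and 11.3 TPM and 42.1, 89.2, 57.7 and 50.7 TPM, log2 fold change 1.97 ± 0.28, edgeR adjusted p = 0.000267, and adjusted p = 0.218 with the letter as a term).

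Arterial and venous genes did not move one way. Of 30 arterial genes 5 were higher and 2 lower, and the 5 ranged from 3 to 9 over the fits that left out a library (KE8, KE4 or ME5 in particular). With the letter as a term the counts were 3 and 4. *Dll1*, a Notch ligand, rose (3.38 to 4.18 TPM in WT and 9.47 to 16.4 TPM in Gpr124-/-, log2 fold change 1.79 ± 0.21, edgeR adjusted p = 5.1e-05). *Tm4sf1*, a tetraspanin-like protein of endothelium, rose too (114 to 139 TPM in WT and 354 to 397 TPM in Gpr124-/-, log2 fold change 1.49 ± 0.07, edgeR adjusted p = 8.82e-08). Of 18 venous genes 4 were higher and 3 lower, and 3 and 4 with the letter, and the 3 lower came to 5 without KE4. *Ackr1*, the chemokine scavenger of venules, fell (25.5 to 41.3 TPM in WT and 7.23 to 9.14 TPM in Gpr124-/-, log2 fold change −2.05 ± 0.20, edgeR adjusted p = 1.13e-05). *Lrg1*, a secreted glycoprotein, rose (3.13 to 3.79 TPM in WT and 17.9 to 22.9 TPM in Gpr124-/-, log2 fold change 2.52 ± 0.16, edgeR adjusted p = 4.36e-07). The Notch list had 1 call among 24 genes, *Dll1* itself, and 3 with the letter as a term, all higher. The 1 came to 2 without LE6 or KE4. *Notch1* was at 83.1 to 98.2 TPM in WT and 95.8 to 131 TPM in Gpr124-/- (log2 fold change 0.29 ± 0.12, edgeR adjusted p = 0.113).

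**Figure D4:**
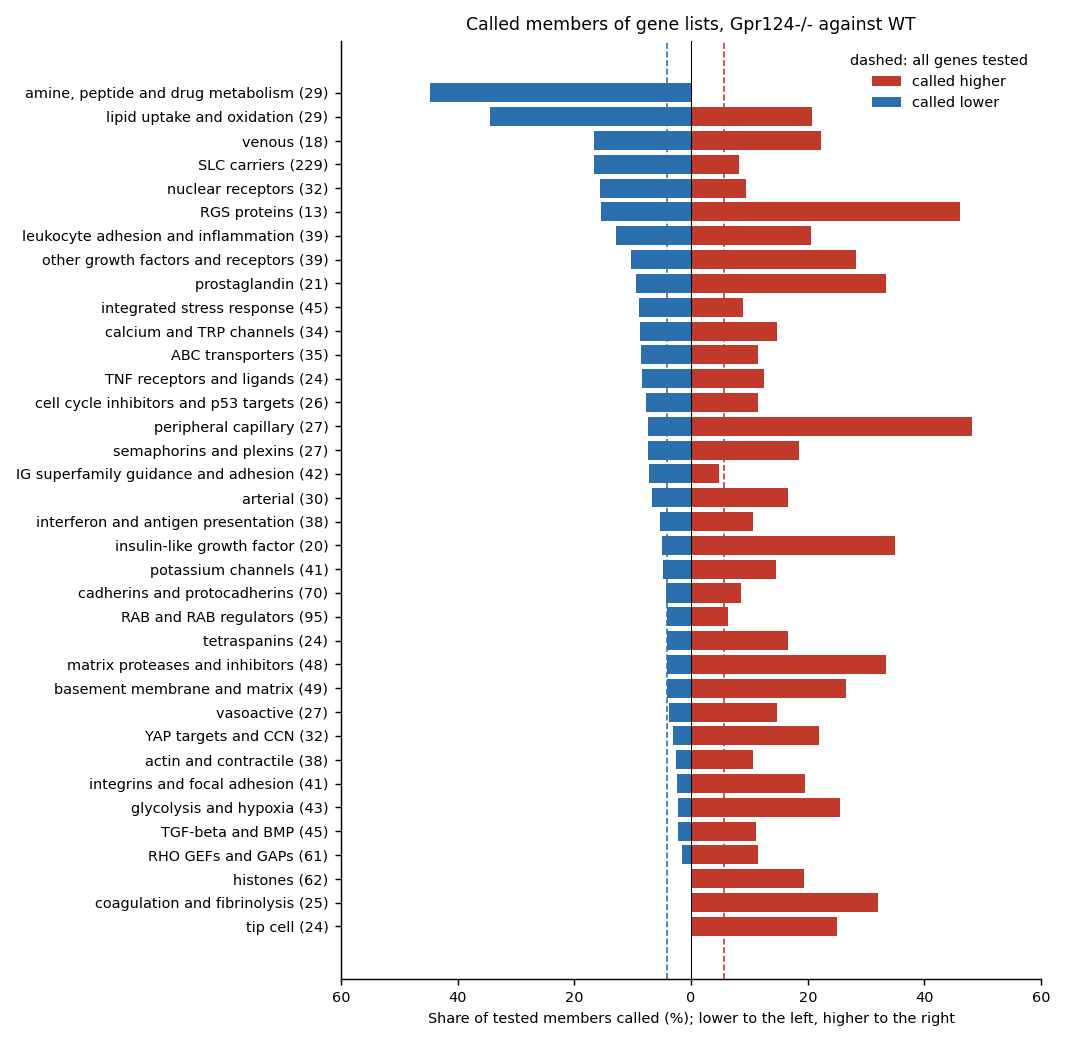
Share of tested members called higher (red, to the right) and lower (blue, to the left) in Gpr124-/- for the 36 function lists and families with at least 12 tested members and at least 5 calls, with the number tested in parentheses and without the cell type markers and the WNT and junction lists. Dashed lines mark all genes tested, 5.67% higher and 4.21% lower, and the longest bar drawn on each side is that of the peripheral capillary genes (48.1% higher) and of amine, peptide and drug metabolism (44.8% lower).

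Several core functions had no gene past both thresholds. Of 42 S phase genes, 49 G2 and M phase genes, 27 genes of the unfolded protein response, 81 of oxidative phosphorylation and 78 mitochondrial ribosomal proteins, 0 were called by edgeR in either direction. The median log2 fold changes were 0.17, 0.30, 0.10, −0.12 and −0.04. By edgeR adjusted p alone, without the fold threshold, 1745 of all 16637 genes tested were higher and 1550 lower. On that count 21 of the 49 G2 and M phase genes were higher and 1 lower. Their sum was 3471 to 4089 TPM in WT and 4490 to 5121 TPM in Gpr124-/-. On the same count 5 of 42 S phase genes were higher and 1 lower, and 2 of 27 of the unfolded protein response were higher. Of 81 oxidative phosphorylation genes 10 were lower and 0 higher, and of 78 mitochondrial ribosomal proteins 2 were higher and 3 lower. The shares in these last 4 lists were near or below those over all genes tested. The letter as a term gave 1 call, higher, in each of the G2 and M phase, unfolded protein response and mitochondrial ribosomal lists. *Mcm6*, a part of the replicative helicase, measured 160, 138, 189 and 178 TPM in WT and 162, 132, 196 and 162 TPM in Gpr124-/- (log2 fold change −0.07 ± 0.14, edgeR adjusted p = 0.787). *Atp5b*, of the ATP synthase, was at 874 to 1081 TPM in WT and 975 to 1218 TPM in Gpr124-/- (log2 fold change 0.12 ± 0.09, edgeR adjusted p = 0.423). Of 83 cytosolic ribosomal proteins 2 were lower (1 with the letter and 1 without JE1, ME4 or ME5), one of them *Rpl38* (2500 to 2772 TPM in WT and 1007 to 1377 TPM in Gpr124-/-, log2 fold change −1.22 ± 0.10, edgeR adjusted p = 3.06e-06). The integrated stress response had 4 higher and 4 lower of 45, where the 4 higher ranged from 2 to 7 without KE8, ME1 or ME5 and came to 0 with the letter as a term, against 3 lower. Its 4 lower genes were the amino acid carriers *Slc1a4*, *Slc7a1*, *Slc3a2* and *Slc7a11*. The last of them was called in 1 of the 8 fits without 1 library and was not called with the letter as a term (log2 fold change −1.46 ± 0.47, edgeR adjusted p = 0.0459, and adjusted p = 0.865 with the letter as a term).

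The count of histone genes depended on the setting. Of 62 histone genes 12 were higher (19.4%) and 0 lower in the main fit, and 0 with the letter as a term and 0 with KE4 alone. In KE4 itself 9 of the 12 lay beyond the WT range, where 814 of all 944 genes called higher did. The 12 fell to as few as 7 when KE8, ME1 or ME5 was left out. *Hist1h4h* measured 25, 24.2, 15.9 and 27.3 TPM in WT and 31.4, 153, 81.7 and 106 TPM in Gpr124-/- (log2 fold change 1.98 ± 0.43, edgeR adjusted p = 0.00537, and adjusted p = 0.465 with the letter as a term), with KE4 close to the WT embryos. Histone genes share near-identical coding sequences, and the counts of single copies are uncertain. The RGS proteins, inhibitors of G proteins, had 6 of 13 higher and 2 lower, and 2 higher with the letter as a term. The 2 lower came to 0 or 1 whichever library was left out. *Rgs18*, of platelets, measured 9.54, 7.6, 10.8 and 17.9 TPM in WT and 21.4, 77, 48.4 and 26.7 TPM in Gpr124-/- (log2 fold change 1.90 ± 0.38, edgeR adjusted p = 0.00336, and adjusted p = 0.439 with the letter as a term). *Rgs5*, of pericytes, measured 17.2, 17.2, 23.6 and 11.6 TPM in WT and 10.5, 6.02, 7.32 and 2.34 TPM in Gpr124-/- (log2 fold change −1.47 ± 0.39, edgeR adjusted p = 0.0186, and adjusted p = 0.28 with the letter as a term), and lost its call without KE8 or ME1.

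The knockout was also set against the other mutant in the same fit, which shares the 4 Gpr124-/- libraries with the comparison above. Of 16637 genes, 444 (2.67%) were higher and 322 (1.94%) lower in Gpr124-/- than in Gpr124deltaC/deltaC, and 160 and 49 with the letter as a term. Leaving out ME1 or ME5 brought the 444 to 268 and 267. The mean levels in WT, Gpr124deltaC/deltaC and Gpr124-/- (± SD, n = 4 each) were 441 ± 92.7, 64.3 ± 30.2 and 11.6 ± 4.14 TPM for *Slco1c1*, with a log2 difference of −2.41 between the mutants (edgeR adjusted p = 0.000459). For *Slc38a5* they were 3664 ± 605, 963 ± 302 and 106 ± 77.1 TPM (difference −3.15, adjusted p = 0.000366). The mean of both carriers in Gpr124deltaC/deltaC lay between those of WT and the knockout. No letter is shared by the Gpr124deltaC/deltaC embryos (J and L) and the Gpr124-/- embryos (K and M). *Kcne3* was at 38.5 ± 2.49, 146 ± 17.4 and 779.9 ± 218 TPM (2.45, adjusted p = 8.91e-05). *Mmp2* was at 18.6 ± 3.56, 104 ± 22.1 and 219 ± 27.3 TPM (1.12, adjusted p = 0.000697). *Hapln1* was at 3.13 ± 0.823, 16.3 ± 6.66 and 33 ± 5.44 TPM, a difference of 1.07 between the mutants (edgeR adjusted p = 0.0116).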

How the data were processed

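RNA from sorted forebrain endothelium was sequenced as poly(A)-selected, paired-end SMART-Seq libraries, 1 per embryo. The submitters' processing notes name bcl2fastq 2.17 and the mm10 genome. The aligner and the counter are not given in the sources used here. The authors deposited raw counts of reads per Ensembl gene for each library, and a table of TPM, which matched the TPM computed from those counts and gene lengths to within 0.00498% above 1 TPM. The files hold 49315 genes.

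Counts of all 12 libraries were fitted by genotype in edgeR 4.0.16 (R 4.3.3, quasi-likelihood test, TMM factors of 0.946 to 1.04, filterByExpr with a minimum count of 10), which left 16637 genes and 9 residual degrees of freedom. Genes were called at a Benjamini-Hochberg adjusted p under 0.05 over all genes tested and a log2 fold change beyond 1. Each embryo is a biological replicate per the labels, with n = 4 a genotype. Alternatives were DESeq2 1.42.0, limma 3.58.1 on log2(TPM + 1) and log2(TPM + 0.1), other scaling, filters and thresholds, the label letter as a term, each library left out in turn and, added after seeing the data, KE4 as the lone Gpr124-/- library. The fits were tested on simulated data.

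Named genes were the 15 largest rises and falls (mean CPM of at least 8, no overlap) and up to 4 called members of each list with a mean CPM of at least 2. Some of these genes are not reported here. The members and gene lists were chosen with earlier results of these data known. Values under about 1 TPM rest on few reads. Figures were drawn with matplotlib 3.10.9.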

Additional observations from a re-analysis of the deposited data

Results flagged for a closer look

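Among 152 genes given with values, 304 groups of 4 embryos were examined for a value far from the other 3 by Dixon's gap over range, and 21 had one, where chance gives about 1 in 20. Embryo KE4 was the one apart in 7 of them, ME1 in 3, ME5 in 1 and ME4 in 0, and the WT embryos JE6 in 4, LE6 in 2, JE1 in 2 and KE8 in 2.

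In all 7, KE4 lay on the WT side of ME1, ME4 and ME5. In genes that fell, KE4 had 221 TPM of *Slc38a5* (58.7 to 81.6 in the other 3), 13.9 TPM of *Slc22a8* (4.20 to 5.65) and 1.47 TPM of *Fgfr4* (0.156 to 0.265). In genes that rose, KE4 had 3116 TPM of *Mest* (3809 to 3935), 1.17 TPM of *Pparg* (4.11 to 4.70), 7.64 TPM of *Dusp4* (12.9 to 13.6) and 17.5 TPM of *Slc6a4* (58.6 to 66.0). Whether the letter K or the embryo itself goes with these values cannot be told apart.

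Embryo ME1 was low for *Stra6* (3.96 TPM), *Slc43a2* (19.7 TPM) and *H2-Q4* (1.01 TPM), and ME5 high for *Sox18* (935 TPM). Among WT embryos, JE6 was high for *Col15a1* (28.6 TPM) and *Aqp1* (11.1 TPM) and low for *Igf2* (183 TPM) and *Cadm1* (41.0 TPM). LE6 was high for *Fabp4* (0.0677 TPM) and *Ramp3* (3.86 TPM), JE1 was high for *Tgfa* (19.2 TPM) and low for *Slc7a8* (182 TPM), and KE8 was high for *Anxa1* (29.6 TPM) and low for *Piezo2* (8.92 TPM).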

How the results depend on the processing

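The naming rules, with *Adgra2* and the most abundant cell type markers, select 183 called genes. Genes named only after their values were seen are not among them. Of the 183, 165 kept direction and call in all 8 fits without 1 library. Over 4189 comparisons with alternatives 3878 kept both, 307 kept the direction but lost the call, and 4 reversed. The 4 were *Tpm2* (log2 fold change −0.063) and *H2-Q4* (0.153) with the letter as a term, and *Trpc1* (−0.488) and *Tnfsf14* (−0.0594) with KE4 alone, and their cause was not tested. The count of genes higher in Gpr124-/- than in WT (944) moved to 495 with the letter, 1745 without the fold threshold, 324 with glmTreat and 237 with KE4 alone, and ran from 793 to 1042 with single libraries left out. The count of lower genes (700) moved to 351, 1550, 301 and 301 in the same order, to 463 with a mean of at least 50 counts, which tests fewer genes, and to 466 with limma on all TPM, and ran from 634 to 782. Other scaling, genes off the X, Y and mitochondrial chromosomes, protein-coding genes alone, the 8 libraries alone and DESeq2 (1019 and 762) stayed within 1.5 times. Against Gpr124deltaC/deltaC, 444 higher moved to 160 and 322 lower to 49 with the letter, and single libraries left out gave 267 to 597 and 237 to 411. No paired analysis was possible because the embryo names give the genotypes no shared replicate numbers. The letter as a term, which among WT and Gpr124-/- embryos only K spans, is the nearest to such a block.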

Other observations

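Iron handling was looked at after *Tfrc* was seen among the largest falls, so its list of 31 genes was drawn up with values known and carries no test. Of 29 tested, 8 were lower and 4 higher (edgeR, median log2 fold change −0.18), and 8 and 3 with the letter as a term. *Slc40a1* (ferroportin, the iron exporter) measured 506, 441, 706 and 587 TPM in WT and 136, 69.4, 96.9 and 66.9 TPM in Gpr124-/- (log2 fold change −2.65 ± 0.24, edgeR adjusted p = 5.6e-06). *Fth1*, the heavy chain of ferritin, measured 9783, 9903, 12520 and 12280 TPM in WT and 3503, 2962, 2698 and 2776 TPM in Gpr124-/- (log2 fold change −1.94 ± 0.10, edgeR adjusted p = 1.69e-07), whereas its light chain *Ftl1* measured 3289 to 3837 TPM in WT and 3948 to 5029 TPM in Gpr124-/- (log2 fold change 0.23 ± 0.10, edgeR adjusted p = 0.129). *Flvcr2*, a choline carrier of brain vessels, was at 202 to 269 TPM in WT and 15.3 to 46.3 TPM in Gpr124-/- (log2 fold change −3.10 ± 0.27, edgeR adjusted p = 4.88e-06). *Steap3*, which reduces iron in endosomes, was at 27.1 to 30.3 TPM in WT and 3.38 to 5.57 TPM in Gpr124-/- (log2 fold change −2.73 ± 0.17, edgeR adjusted p = 3.44e-07). *Trf*, transferrin, was at 184 to 252 TPM in WT and 62 to 73.3 TPM in Gpr124-/- (log2 fold change −1.80 ± 0.14, edgeR adjusted p = 1.88e-06). Of these, *Ftl1* was higher by a small amount and was not called, and the others were lower in the 4 Gpr124-/- embryos. *Slc39a14*, an importer of zinc, manganese and iron, was higher (1.42 to 1.95 TPM in WT and 6.29 to 7.5 TPM in Gpr124-/-, log2 fold change 1.97 ± 0.16, edgeR adjusted p = 2.34e-06), and its relative *Slc39a8* was lower (204 to 273 TPM in WT and 49.5 to 105 TPM in Gpr124-/-, log2 fold change −1.62 ± 0.19, edgeR adjusted p = 5.82e-05).

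Of 29 tested imprinted genes, a list also made after seeing *Igf2*, 5 were higher and 0 lower (edgeR, median 0.47), and 8 and 0 with the letter as a term. *H19*, the noncoding RNA beside *Igf2*, measured 298, 287, 272 and 247 TPM in WT and 799, 1009, 721 and 960.2 TPM in Gpr124-/- (log2 fold change 1.62 ± 0.20, edgeR adjusted p = 7.09e-05). *Mest*, a hydrolase expressed from the paternal copy, measured 1463, 1411, 1428 and 1464 TPM in WT and 3116, 3935, 3842 and 3809 TPM in Gpr124-/- (log2 fold change 1.31 ± 0.10, edgeR adjusted p = 1.46e-06). *H19* is expressed from the maternal and *Igf2* from the paternal chromosome, so both parental directions were among the rises. *Cdkn1c*, a growth inhibitor, measured 394, 362, 127 and 189.5 TPM in WT and 183, 341, 279.6 and 348 TPM in Gpr124-/- and was not called (log2 fold change 0.05 ± 0.50, edgeR adjusted p = 0.966). *Selenop*, the plasma carrier of selenium, and *Lrp8*, its receptor in brain, both fell. *Selenop* measured 2033, 1946, 2888 and 2175 TPM in WT and 555, 307, 314 and 225 TPM in Gpr124-/- (log2 fold change −2.74 ± 0.22, edgeR adjusted p = 2.7e-06). *Lrp8* measured 265, 217, 169.9 and 164 TPM in WT and 30.9, 18.3, 38.8 and 29.9 TPM in Gpr124-/- (log2 fold change −2.85 ± 0.24, edgeR adjusted p = 3.99e-06).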
